A study of Mus musculus with 5 samples.

Results

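Reactive astrocyte genes are genes that astrocytes, the star-shaped glia of the brain, are known to raise when the tissue is injured, inflamed or aged. The 9 described here were taken by symbol from the deposited count table: Gfap, Vim, Serpina3n, Lcn2, Cd44, Osmr, S1pr3, Steap4 and Timp1. All 9 matched 1 Ensembl gene each in the GENCODE M21 annotation, out of 47729 genes in the table. RNA sequencing had measured the brain of 5 male C57BL/6 mice, an inbred laboratory strain, at an age of 30 months, with no treatment or allele named in the labels. The 5 libraries form 1 group and are named by their label numbers as mice 7, 8, 9, 10 and 11. No other age was analysed here, so the values describe levels at this age and how far the mice differed, not a change with age.

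Reactive astrocytes thicken their processes with the intermediate filament proteins encoded by Gfap and Vim, and secrete protease inhibitors and immune mediators. Cytokines of the interleukin 6 family, among them oncostatin M, act on receptors that share the gp130 chain and signal through the transcription factor Stat3, which is known to drive much of this response in mice. None of the 9 genes is exclusive to astrocytes: Vim and Timp1 are also expressed by vascular and meningeal cells, Cd44 by immune cells and Lcn2 by neutrophils. In bulk tissue, fewer cells of a type and less RNA per cell cannot be told apart.

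The libraries held 15392006 to 18723390 counts, and mitochondrially encoded genes took 3.88% to 4.96% of them. Mouse 11 stood apart in composition: its log2 levels moved by 0.529 for each 10 percentage points of GC content and by -0.169 for each doubling of gene length, against -0.272 to -0.00308 and -4.58e-06 to 0.0991 in the other mice. The members' deviations by mouse and their spread are therefore given also with these trends removed from each library; values in RPKM and CPM carry no such correction. All 14 homeostatic astrocyte markers, genes of resting astrocyte function, were measured, from Sox9 at 8.69 ± 2.84 RPKM to the glutamine synthetase gene Glul at 548 ± 86.9 RPKM. RPKM are counts scaled to gene length and to the library's total, errors are SDs over mice, and n = 5 throughout. The labels speak of animals in the title only, so the spread may in part be technical.

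The sequences upstream of 3 members are shown because they belong to the most abundant member, to the abundant member with the widest spread, and to the only member with a Stat motif. Each line runs 5′ to 3′ from 120 to 21 bases before the RefSeq start site in GRCm38.p6 and holds no annotated exon. The Gfap line lies within the span of the M21 gene, which runs from 102887336 to 102900912. Capitals mark the Stat motif and, after it, the C/EBP motif.
Gfap, chr11:102897221-102897320, minus strand: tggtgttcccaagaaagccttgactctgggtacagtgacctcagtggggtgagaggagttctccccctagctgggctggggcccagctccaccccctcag
Serpina3n, chr12:104406588-104406687, plus strand: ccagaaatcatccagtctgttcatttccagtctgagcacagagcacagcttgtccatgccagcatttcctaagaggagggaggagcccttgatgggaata
Steap4, chr5:7960352-7960451, plus strand: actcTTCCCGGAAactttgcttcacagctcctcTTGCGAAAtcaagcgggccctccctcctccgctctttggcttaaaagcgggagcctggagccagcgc

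In the 250 bases before the start site, on both strands, the Stat motif TTCNNNGAA was found in 1 of 9 members, Steap4, and in 7.02% of all 32851 RefSeq promoters. The C/EBP motif TTGCNNAA was found in 2 members, Lcn2 and Steap4, against 9.56% of promoters. The NF-kB motif was found in 2 members, Vim and Steap4, against 7.25%, and the AP-1 motif TGANTCA in 0 members, against 6.75%. The Steap4 matches to the Stat and C/EBP motifs do not overlap each other. Such matches are letters in this window only, and distal elements were not examined.

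Gfap was by far the most abundant member, and Steap4 the least. Together the members took 537, 796, 499, 814 and 758 CPM (counts scaled to the library's total) in mice 7 to 11, and Gfap made up 71.5% ± 2 of that sum. Gfap, Serpina3n, Vim, S1pr3 and Cd44 followed each other in RPKM with no overlap between neighbouring genes in any mouse. From Cd44 downward, the ranges of Timp1, Lcn2, Osmr and Steap4 overlapped.

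**Figure D1:**
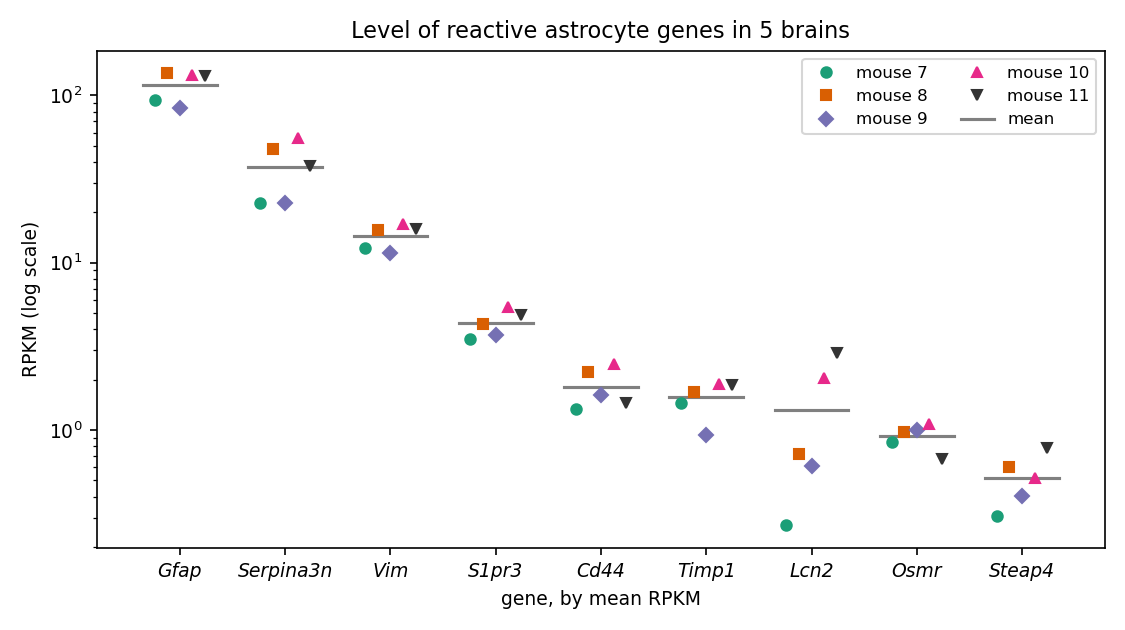
RPKM (log scale) of the 9 reactive astrocyte genes, ordered by mean; each symbol is 1 of the 5 mice and the grey line is their mean. Gfap lies between 84 and 136 RPKM and Steap4 between 0.306 and 0.779 RPKM, and the symbols of mice 7 and 9 lie lowest for most genes.

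Among the filament genes, Gfap encodes the astrocyte intermediate filament protein. It is a protein-coding gene (ENSMUSG00000020932) on chromosome 11 from 102887336 to 102900912 in GRCm38, and ranked 262 of all genes by mean RPKM. Gfap had 93.5, 136, 84, 132 and 131 RPKM in mice 7 to 11, a mean of 115 ± 24.4. Mice 7 and 9 were low and the other three close together. With GC and length trends removed, mouse 11 moved to a log2 deviation of -0.08, from 0.27, and lay between mouse 7 and mouse 10.

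Vim encodes vimentin, which assembles with the Gfap protein in reactive astrocytes (ENSMUSG00000026728, chromosome 2 from 13573927 to 13582826). It had 12.3, 15.7, 11.5, 16.9 and 16 RPKM, a mean of 14.5 ± 2.43. The same mice were low as for Gfap, and the ratio of Gfap to Vim in RPKM was 7.60, 8.63, 7.32, 7.79 and 8.18, a mean of 7.9 ± 0.511. The SD of this ratio on the log2 scale was 0.09, where counting error alone gives 0.05. Among 11193 genes whose mean count reached 100, only 0.0536% had a smaller SD of their ratio to Gfap than Vim. With GC and length trends removed from all 5 libraries the closeness was lost: the SD was 0.29 and 25.5% of genes had a smaller one. S1pr3 was also near Gfap, with an SD of 0.18 (1.09% of genes smaller) and of 0.21 with trends removed (4.01%). For Serpina3n, Cd44 and Osmr, 27.4%, 30.7% and 66.8% of genes had a smaller SD. With trends removed these shares were 52.5%, 25.7% and 16.2%.

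Of the secreted members, Serpina3n and Lcn2 had the largest SDs in log2 CPM of all 9 genes (0.60 and 1.37), except that Steap4 exceeded Serpina3n with trends removed (0.63 against 0.56). Serpina3n encodes a serine protease inhibitor (ENSMUSG00000021091, chromosome 12 from 104406729 to 104414329). It had 22.6, 47.9, 22.9, 55.6 and 37.7 RPKM in mice 7 to 11, a mean of 37.3 ± 14.8. Mice 7 and 9 had nearly the same low level, and mouse 10 had 2.46 times that of mouse 7. Its level was 24.2%, 35.4%, 27.2%, 42.1% and 28.8% of that of Gfap, so the ratio of these 2 members was not constant. Serpina3n lies in a cluster of similar genes among which reads can be split. It had 726 to 1840 counts per library, Serpina3g 14 to 43, and no other of the 11 cluster genes more than 4.

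Lcn2 encodes lipocalin 2, which binds bacterial iron carriers (ENSMUSG00000026822, chromosome 2 from 32384633 to 32388252). It had 11, 29, 25, 86 and 142 counts in mice 7 to 11, or 0.270, 0.718, 0.609, 2.04 and 2.89 RPKM, a mean of 1.31 ± 1.11. The level in mouse 11 was 10.7 times that in mouse 7 in CPM. The range over mice was 3.40 in log2 CPM and 2.93 with trends removed, with mouse 11 highest and mouse 7 lowest in both. The exact Poisson 95% intervals of these counts were 120 to 167 and 5.49 to 19.7, which cover counting error only. Mice 10 and 11 were high and the other three low. Of 8 neutrophil markers 4 passed the filter, a mean count of 10 or more. The mean of these 4 was highest in mouse 8, at a log2 deviation of 1.14, and lowest in mouse 10, at -1.08. Single markers differed: S100a8 had 12, 27, 11, 0 and 12 counts in mice 7 to 11, while Ngp had 9, 30, 9, 16 and 25, lowest in mice 7 and 9. S100a9 had 13, 27, 13, 7 and 10 counts and Ltf 21, 38, 16, 16 and 20. Among those under the filter, Elane had 0, 1, 0, 2 and 6 counts and Camp 6, 10, 2, 0 and 17. Mpo had 4, 4, 0, 8 and 3 counts and Retnlg 11, 7, 7, 7 and 0. The part of neutrophil RNA in the Lcn2 values was not tested.

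Timp1, an inhibitor of matrix metalloproteinases (ENSMUSG00000001131, chromosome X from 20870166 to 20874735), had 20, 23, 13, 27 and 31 counts and 1.57 ± 0.395 RPKM. Its counting error, at 20.9%, was close to its coefficient of variation of 25.2%. Timp1 lies wholly inside Syn1, a synaptic vesicle gene on the opposite strand with 8002 to 17245 counts. The exons of the 2 genes do not overlap, the strand setting of the counting was not given in the sources used here, and a part of unspliced Syn1 RNA in the Timp1 counts was not tested.

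Among the receptors and membrane proteins, S1pr3, a receptor for sphingosine 1-phosphate, had 3.50, 4.29, 3.67, 5.41 and 4.88 RPKM, a mean of 4.35 ± 0.804. Mouse 10 was highest and mouse 7 lowest. Cd44, the hyaluronan receptor, had 1.33, 2.21, 1.61, 2.48 and 1.45 RPKM, a mean of 1.82 ± 0.504. It differed from the filament genes in mouse 11, which was low here (log2 deviation -0.22, or 0.10 with trends removed). Osmr, the oncostatin M receptor chain, had 0.844, 0.976, 0.996, 1.09 and 0.675 RPKM, a mean of 0.916 ± 0.16. Its SD in log2 CPM was the smallest of the members, and mouse 11 was lowest (log2 deviation -0.36, or -0.02 with trends removed). Steap4, a metalloreductase of the cell membrane, had 15, 29, 20, 26 and 46 counts, and its 0.52 ± 0.182 RPKM made it the lowest member. S1pr3 (ENSMUSG00000067586) lies on chromosome 13 from 51408639 to 51422797 and Cd44 (ENSMUSG00000005087) on chromosome 2 from 102811141 to 102901665. Osmr (ENSMUSG00000022146) lies on chromosome 15 from 6813577 to 6874969 and Steap4 (ENSMUSG00000012428) on chromosome 5 from 7960457 to 7982213.

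Neighbours in this order were compared in log2(RPKM + 0.1) by an exact permutation test, two-sided, that flips the sign of each mouse's difference; with 5 mice it cannot give a p below 0.0625. Each of the 4 upper neighbours, from Gfap over Serpina3n to S1pr3 over Cd44, was higher in 5 of 5 mice, with mean log2 ratios of 1.23 to 1.71 and that smallest exact p (0.125 after Benjamini-Hochberg adjustment over 8 pairs). Cd44 exceeded Timp1 in 3 of 5 mice and Timp1 exceeded Lcn2 in 3 of 5 (exact permutation p = 0.375 each, adjusted 0.429). Lcn2 exceeded Osmr in 2 of 5 mice (exact permutation p = 0.9375, adjusted 0.938). Osmr exceeded Steap4 in 4 of 5 mice, all but mouse 11 (exact permutation p = 0.125, adjusted 0.2).

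Most members were lowest in mice 7 and 9, a pattern picked after the values were seen. In TMM-scaled log2 CPM, 7 of 9 members had their lowest 2 values in these mice, as did 11.5% of the 16318 genes tested. With GC and length trends removed the count was again 7 of 9, with Cd44 in place of Timp1, and the share of genes 9.68%. Without mouse 8, 10 or 11 in turn, the members with this pattern numbered 7, 7 and 8 of 9, and the share of genes was 22.2%, 17.7% and 15.8%. At fixed scaling, leaving out 1 of these mice cannot lower either value, so these counts are no check of the pattern. The highest value was in mouse 10 for 5 members (11.1% of genes) and in mouse 11 for 4 (37.6%). The lowest was in mouse 7 for 5 members (25.4% of genes), in mouse 9 for 3 (15.4%) and in mouse 11 for Osmr (32.7%). With trends removed, 5 members were highest in mouse 10 (16% of genes), 3 in mouse 11 (27.5%) and 1 in mouse 8 (13.4%), and 4 were lowest in mouse 7 (27.5%) and 5 in mouse 9 (14.7%). The mean log2 deviation of the 9 members was -0.51, 0.12, -0.34, 0.39 and 0.34 in mice 7 to 11, and their median -0.32, 0.12, -0.31, 0.29 and 0.25. The median over all genes tested lay between -0.03 and 0.03. With trends removed the mean of the members was -0.48, 0.10, -0.33, 0.40 and 0.31.

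**Figure D2:**
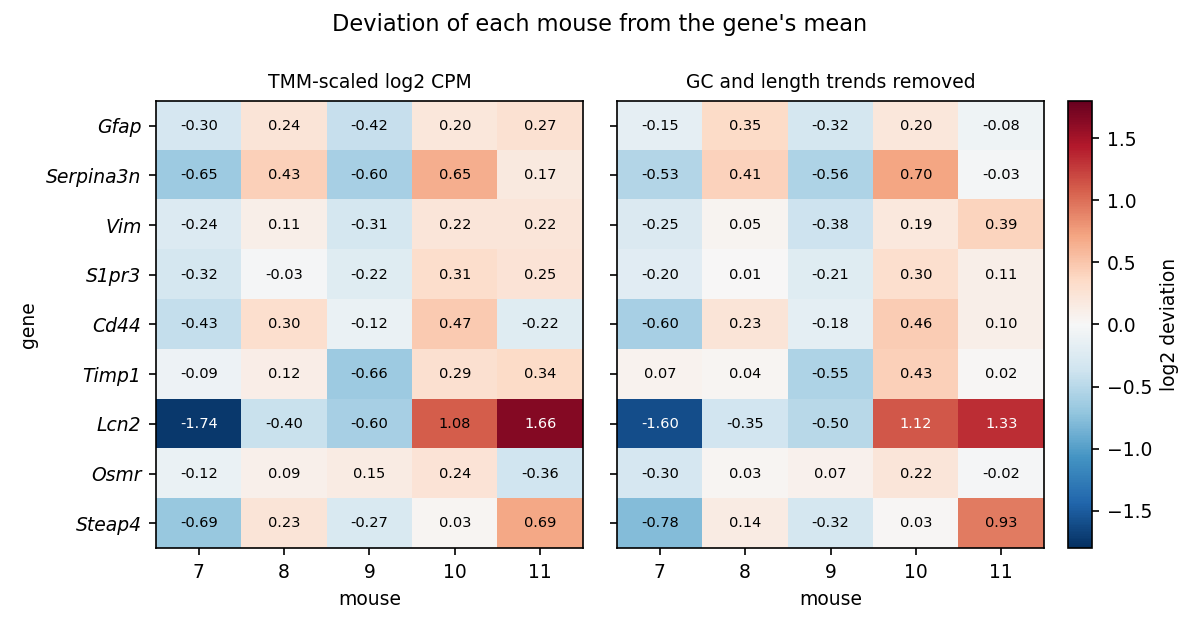
Log2 deviation of each mouse from the gene's mean over mice, for the 9 genes, in TMM-scaled log2 CPM (left) and with GC and length trends of each library removed (right); red is above and blue below the mean. The columns of mice 7 and 9 are mostly blue, mouse 10 is above 0 for all 9 genes in both panels, and Gfap in mouse 11 is 0.27 on the left and -0.08 on the right.

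The spread of single members was tested against that of other genes at their level. In edgeR's quasi-likelihood fit, 0 of 9 members were called variable between mice, and 0% of the 16318 genes tested, at an adjusted p of 0.05. A missed threshold does not show that a gene did not vary. Even Cbln3, of the cerebellum list, had an adjusted p of 0.585 in edgeR. It had 91, 5, 0, 391 and 22 counts in mice 7 to 11 and an SD of 3.35 in log2 CPM. At an unadjusted p below 0.05 there were 786 genes (4.82%) and 2 members, Lcn2 and Serpina3n, each with an adjusted p of 0.981 in edgeR. DESeq2 flagged 49 genes and 0 members as dispersion outliers, out of a number of genes not given here. The SD of log2 CPM of Lcn2 was 1.37, against a median of 0.43 over the 500 genes nearest in level, and 99.6% of tested genes had a lower SD. Serpina3n had 0.60 against 0.23 and Gfap 0.33 against 0.21. Osmr, at 0.24, and Timp1, at 0.40, lay below their medians of 0.29 and 0.50. The median SD of the members was 0.38, and that of all genes tested 0.30; with trends removed these were 0.35 and 0.23.

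**Figure D3:**
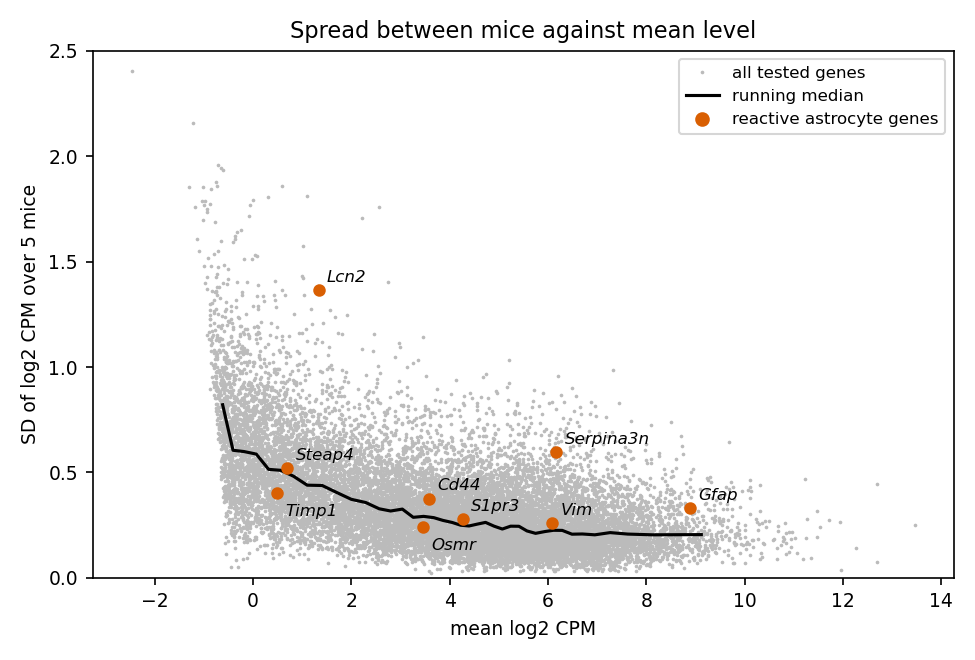
SD of log2 CPM over the 5 mice against mean log2 CPM for all 16318 genes tested (grey; 3 genes lie above the axis limit of 2.5), with the running median (black) and the 9 reactive astrocyte genes (orange). Lcn2 (1.37), Serpina3n (0.60) and Gfap (0.33) lie above the median line, and Osmr (0.24) and Timp1 (0.40) below it.

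The mean of the homeostatic astrocyte markers differed less between the mice than that of the reactive genes. The mean log2 deviation of the markers was -0.14, 0.04, -0.06, 0.11 and 0.05 in mice 7 to 11, with the same sign as the members in every mouse. Relative to these markers the members were at -0.37, 0.08, -0.28, 0.28 and 0.28, and with trends removed at -0.33, 0.07, -0.26, 0.30 and 0.22. Single markers did not move alike: Aldh1l1, Sox9, Aldoc and Ndrg2 had their lowest 2 values in mice 7 and 9, 4 of 14 against 11.5% of genes. With trends removed Slc1a3 and Gja1 joined them, 6 of 14 against 9.68% of genes. Other markers went the other way. Aqp4 was highest in mouse 7 (42.7 RPKM) and lowest in mouse 11 (13.7), and Slc1a2 highest in mouse 9 (349) and lowest in mouse 11 (213).

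Markers of other cell types that express some members varied over a narrower range, except the neutrophil list. Like the members, the microglia list had its lowest means in mice 7 (-0.09, or -0.06 with trends removed) and 9 (-0.14, or -0.08). The meningeal list did so at -0.02 and -0.07, but with trends removed its lowest were mice 7 (-0.07) and 11 (-0.06). The lowest 2 values were in mice 7 and 9 for 3 of 8 microglia, 4 of 8 oligodendrocyte and 2 of 8 meningeal markers. With trends removed these were 2, 2 and 3 of 8. Endothelial, mural and neuronal markers had 1 of 8 each, ependymal 1 of 6, neutrophil 1 of 4 and choroid plexus 0 of 8. The share of all genes tested was 11.5%, or 9.68% with trends removed. The part of these cells in the members' values was not tested. The SD over mice of the list mean was 0.40 for the 9 members, 0.10 for homeostatic astrocytes, 0.13 for microglia, 0.12 for endothelium, 0.11 for mural cells, 0.06 for meningeal fibroblasts, 0.25 for ependyma, 0.23 for choroid plexus, 0.19 for oligodendrocytes, 0.07 for neurons and 0.79 for the 4 neutrophil genes. With trends removed it was 0.39 for the members, 0.11 for homeostatic astrocytes, 0.07 for microglia and 0.70 for the neutrophil genes. The members' mean includes Lcn2, whose log2 deviation was -1.74 in mouse 7 (11 counts) and 1.66 in mouse 11 (142 counts). The median deviation of the members ran from -0.32 in mouse 7 to 0.29 in mouse 10. Markers of the cerebellum and of monoaminergic nuclei varied far more, with SDs of 1.46 and 1.06. The cerebellum list was high in mice 10 (2.06) and 7 (0.89) and lowest in mouse 9 (-1.60), and the monoaminergic list was lowest in mouse 9 (-1.75) and highest in mouse 8 (1.09). The part of such differences in regional content in the members' values was not tested.

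**Figure D4:**
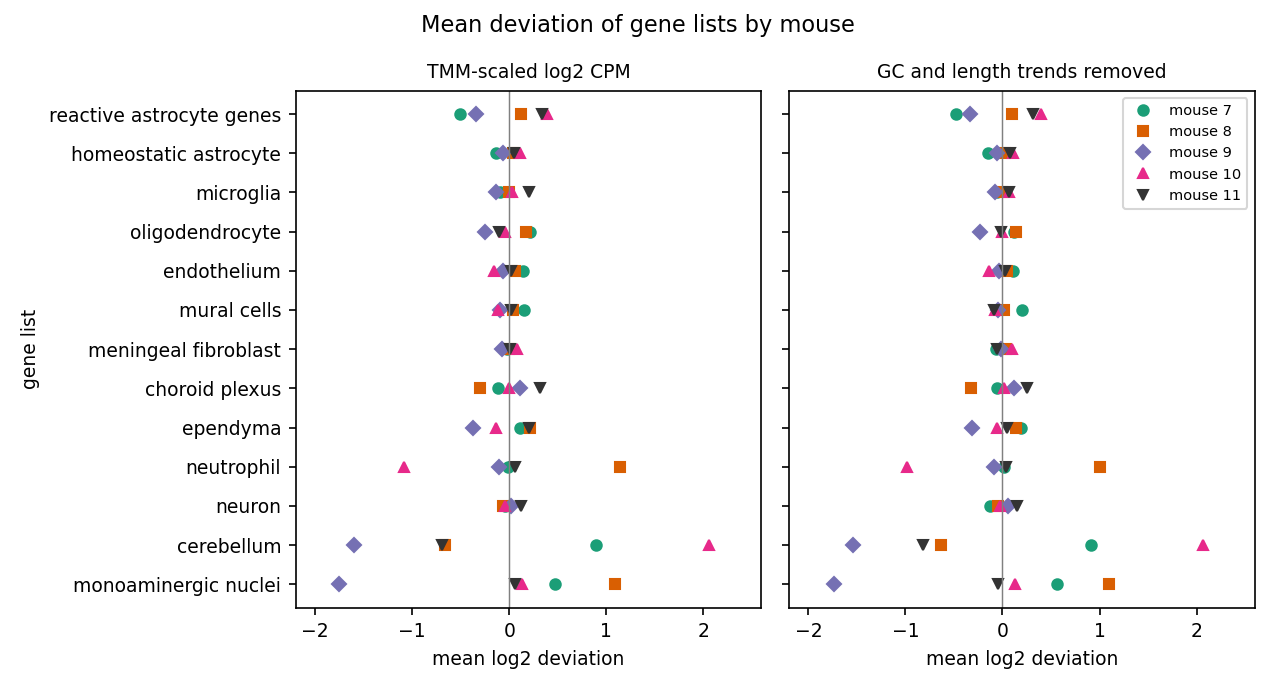
Mean log2 deviation by mouse of the 9 reactive astrocyte genes (top row) and of 12 marker lists, in TMM-scaled log2 CPM (left) and with GC and length trends removed (right); each symbol is a mouse. The reactive genes run from -0.51 in mouse 7 to 0.39 in mouse 10, the homeostatic markers from -0.14 to 0.11, and the cerebellum list from -1.60 in mouse 9 to 2.06 in mouse 10.

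Other genes linked to reactive astrocytes followed in part. Of 4 further genes raised in most kinds of reactive astrocyte, Hspb1, Cxcl10 and Aspg had their lowest 2 values in mice 7 and 9, or 1 of 4 with trends removed. Hspb1, a small heat shock protein, had 4.25 ± 1.98 RPKM, and the ferroxidase ceruloplasmin (Cp) was highest in mouse 7, at 2.81 RPKM, and lowest in mouse 11, at 1.34. Of the neuroinflammatory list 12 of 13 genes were tested and 7 showed the pattern, as did 7 with trends removed, where Iigp1 took the place of H2-T23. Both sets included the complement component C3, with 1.88, 2.72, 1.69, 2.30 and 2.52 RPKM in mice 7 to 11. H2-D1, a class I antigen-presenting chain, was the highest of this list at 32.3 ± 9.44 RPKM, and Ugt1a1 had no counts. Of the list linked to ischaemia 10 of 13 were tested and 2 showed it, Sphk1 and Stat3, or 1 with trends removed; S100a10 had 9.57 ± 1.61 RPKM and Clcf1 no counts. These shares stand beside 11.5% of all genes tested, and 0 genes of the lists were called variable in edgeR.

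Of 7 genes for ligands of the gp130 receptors, only Lif and Ctf1 reached a mean count of 10, Ctf1 with 0.66 ± 0.366 RPKM. Osm, the ligand of Osmr, had 5, 2, 1, 0 and 5 counts and Il6 3, 4, 0, 3 and 0; the limit for a library at 0 is 3 counts. All 6 receptor genes were measured, from Osmr to Cntfr, the receptor of ciliary neurotrophic factor, at 25.8 ± 8.56 RPKM, and the shared chain gp130 (Il6st) had 12.7 ± 1.42 RPKM. Stat3 had 8.13, 8.75, 8.33, 9.92 and 10.3 RPKM in mice 7 to 11, lowest in mice 7 and 9. Only 1 of the 8 signalling genes, Stat3 itself, showed this pattern, beside 11.5% of all genes tested. With trends removed it was again 1 of 8, beside 9.68%. Jak1 and Jak2 peaked in mouse 7, at 29.7 and 13 RPKM. A link between the Stat3 pathway and the members' levels was not tested. Socs3, the feedback inhibitor of this pathway, was lowest of the 8 signalling genes at 0.949 ± 0.378 RPKM and highest in mouse 11, at 1.61. Ptpn11, a phosphatase of the same pathway, was the most abundant at 34.6 ± 2.24 RPKM. Of the NF-kB list 7 of 10 genes were tested, with Rela at 11.4 ± 2.21 RPKM and Tnf at 0 to 9 counts per library. Of these 7 genes 3 had their lowest 2 values in mice 7 and 9, or 2 with trends removed. Among the gp130 receptor genes 2 of 6 did so, or 3 of 6 with trends removed, and of the 2 ligand genes tested 0.

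Relatives and partners of the members were found at widely different levels. Among filament genes Nefl, of neurons, had 118 ± 16.3 RPKM, near Gfap, and the muscle filament gene Des 0.753 ± 0.249. Timp2 had 137 ± 17.6 RPKM, against 1.57 ± 0.395 for Timp1, and Mmp3 a mean of 2.8 counts. S1pr1 had 59.5 ± 6.45 RPKM, against 4.35 ± 0.804 for S1pr3, and S1pr4 0.318 ± 0.269. Steap2 had 2.8 ± 0.534 RPKM, and Steap4 was the lowest of the 4 Steap genes. Slc22a17, a lipocalin 2 receptor, had 217 ± 77.4 RPKM; mouse 11, at 354, stood above the range of 173 to 198 of mice 7 to 10. Lrp2, another one, had 0.0768 ± 0.0424. Of 10 genes of hyaluronan and its receptor, Ezr, which links Cd44 to the cytoskeleton, was highest at 19.0 ± 3.4 RPKM and Hmmr had a mean of 2.2 counts.

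The genes whose deviations over the 5 mice came closest to those of the members were found by the root mean square difference in log2 CPM among 11175 genes. For Gfap these were C4b, a complement component (0.0529, 36.8 ± 7.74 RPKM), Calb2, the calcium-binding protein calretinin (0.07), and Cyth4 (0.0712). For Serpina3n they were Gpnmb (0.103, 1.73 ± 0.691 RPKM), the lysozyme gene Lyz2 (0.161) and the histone gene Hist1h2bc (0.216). For the mean of the 9 members they were Slc6a20a, an amino acid transporter (0.0899), Fam43b (0.0913) and Arid5a (0.0935). These are descriptions over 5 mice, with no test, and the deviations had GC and length trends left in. The part of such trends in this closeness was not tested.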

How the data were processed

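The members and gene lists were chosen with earlier results of these data known, and the genes named from each list are its highest and lowest by mean RPKM, those called variable, and others named after their values were seen. The authors deposited whole-number counts per Ensembl gene for 5 libraries of total RNA made with an Illumina multiplexed mRNA kit, per the labels' protocols. The tools listed, per the submitters' processing notes, are featureCounts 1.4.6-p4, STAR 2.4.1d and CASAVA 1.7, with the build GRCm38; settings, strand and annotation release are not given in the sources used here. The authors also deposited RPKM values. Among 12729 genes checked, the lengths implied by these agreed within 1% across libraries for 0 genes with each library's own total and for 12729 with the totals rotated among the libraries. RPKM were therefore recomputed from the counts, each library's own total and the implied lengths. The count table was matched to GENCODE M21 (47310 of 47729 genes; the unmatched held 0.0469% of counts).

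edgeR 4.0.16 fitted an intercept to the 16318 genes whose mean count was 10 or more, with TMM scaling; the quasi-dispersions were set against an F distribution that follows mean level (limma 3.58.1), adjusted by Benjamini-Hochberg. Log2 CPM used a prior count of 1, and GC and length trends were splines fitted per library. DESeq2 1.42.0 was an alternative. Pairs of libraries differed by 7.02 to 101 in chi-square per gene, so all 5 were kept. Of the per-sample columns, 0 were left out.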

Additional observations from a re-analysis of the deposited data

How the results depend on the processing

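Of 165 alternative values for the counts of calls, the levels in RPKM and the deviations by mouse, 162 stayed close to those reported. Close meant within 1 SD, or within 1.5 times for counts and SDs. Of all 342 values, 0 reversed. Leaving out 1 mouse cannot move a mean level in RPKM by 1 SD, so those values had to count as close. They are no check of the levels. At fixed scaling, leaving out 1 mouse shifts the deviations of all other mice by the same amount. The deviations with 1 mouse left out are therefore a weak check. Without a filter on low counts edgeR called 230 genes variable, among them 1 of 9 members, Lcn2. Its adjusted p in edgeR was 0.0153, against 0.981 with the filter. DESeq2 flagged 49 genes as dispersion outliers where edgeR called 0. The number of genes tested under these settings is not given here, so the calls cannot be set against a share of all genes. The cause of these differences was not tested. Serpina3n had an adjusted p of 0.104 in edgeR without the filter. Leaving out 1 mouse at a time gave 0 calls each time. With a filter in place, the lowest adjusted p among the members in edgeR was 0.23, for Serpina3n without mouse 11. Without that mouse Lcn2 had 0.467 and Gfap 0.618. The SD of Osmr was 0.16 without mouse 11, and that of Timp1 0.19 without mouse 9. The number of members with their lowest 2 values in mice 7 and 9 was 7 to 8 of 9 under settings added after the data were seen. Leaving out a mouse other than 7 and 9 could not lower this number at fixed scaling. The mean Lcn2 level ranged from 0.91 to 1.57 RPKM when 1 mouse was left out. No paired analysis was possible because the labels give a single group. Low counts limit Timp1, Steap4 and Lcn2, and no contrast with another age can be drawn.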
